A study of Mus musculus with 6 samples.

Results

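The chemokine genes described here are Ccl2, Ccl7, Ccl8, Ccl9, Cxcl1, Cxcl5, Cxcl10, Cxcl12, Pf4 and Ppbp, 10 of the 20950 entries of a table of transcript levels in C2C12 muscle cells. All 10 were found in the table by symbol. They were selected on measured values: the set was drawn up with the changes of these genes after addition of exosomes in 0.2% FBS known, so that contrast is given for them as a description and was not tested. C2C12 is an established line of mouse myoblasts, which grow in rich serum and fuse into multinucleated myotubes when serum is reduced. The libraries were 1 of growing cells in 10% FBS (fetal bovine serum), 1 of cells in 2% HS (horse serum), 1 in 2% HS + exosome, 1 in 0.2% FBS, and 2 (replicates 1 and 2) in 0.2% FBS + exosome. All cells were grown in DMEM, and all but those of 10% FBS were switched to the low serum medium after reaching near confluence. The exosomes, membrane vesicles isolated from FBS with commercial kits, were added in the amount that 10% FBS contains, and the question was how they act on differentiation. Each condition is the same unmodified line, and nothing in the labels says whether the 2 replicates came from separate cultures.

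Chemokines are small secreted proteins that bind receptors of the G protein-coupled family and steer the migration of leukocytes and of other cells. The CC and CXC groups are named for the spacing of their conserved cysteines. In injured muscle, CC chemokines such as Ccl2 draw monocytes, CXC chemokines such as Cxcl1 draw neutrophils, and Cxcl12 guides muscle precursors that carry its receptor Cxcr4. Many chemokine genes are induced for a short time by inflammatory signals through the transcription factor NF-κB or by interferons, and their mRNAs are often short lived.

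Levels are given in FPKM (fragments of a gene, scaled for how long its transcript is and how deeply the library was read), which are per length and can be compared between genes. Of the 20950 entries, 4500 were at 0 in every library. The table holds no counts, and the depth was estimated at between 33700000 and 39400000 reads per library from the steps between low values. Muscle marker genes were present in every library (10 of 10 at 1 FPKM or more), with a summed level of 5081 FPKM in 10% FBS, 9911 in 2% HS, 9070 in 2% HS + exosome, 10589 in 0.2% FBS, and 5078 and 3918 in 0.2% FBS + exosome. Acta1 was the largest part of this sum, at 5322 FPKM in 0.2% FBS and at 2335 and 1610 in 0.2% FBS + exosome. Of the 10 markers, 8 were lower and 2 higher in both of these exosome libraries than in 0.2% FBS. The 2 were Myf5 (5.39 FPKM, then 10.1 and 12.9) and Cdh15 (123.1, then 149.0 and 152.4). The part of the muscle markers in the differences between media given here was not tested. A change in the share of cells of a kind cannot be told apart from a change per cell in such bulk libraries.

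Averaged over the 6 libraries, 9 of the chemokine genes had a level of at least 1 FPKM, and Cxcl10 stayed below 1 FPKM in each of them. Their levels summed to 83.8 FPKM in 10% FBS, 109.5 in 2% HS, 109.3 in 2% HS + exosome, 85.5 in 0.2% FBS, and 214.0 and 217.1 in the libraries of 0.2% FBS + exosome. The sum was thus alike in the 2 libraries with exosomes in 0.2% FBS, although the genes that made it up were not at the same levels in both. In 10% FBS the order began with Cxcl1, Ccl2 and Cxcl5. In 2% HS, with or without exosomes, it began with Ccl2, Ccl7 and Ccl8. Ccl2 led in all 5 libraries of low serum, but the genes after it changed place between replicates 1 and 2 of 0.2% FBS + exosome, where Cxcl5 and Cxcl1 stood behind Ccl7 and Ccl8 in replicate 1 and ahead of them in replicate 2. Cxcl10 was the lowest in every library.

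**Figure D1:**
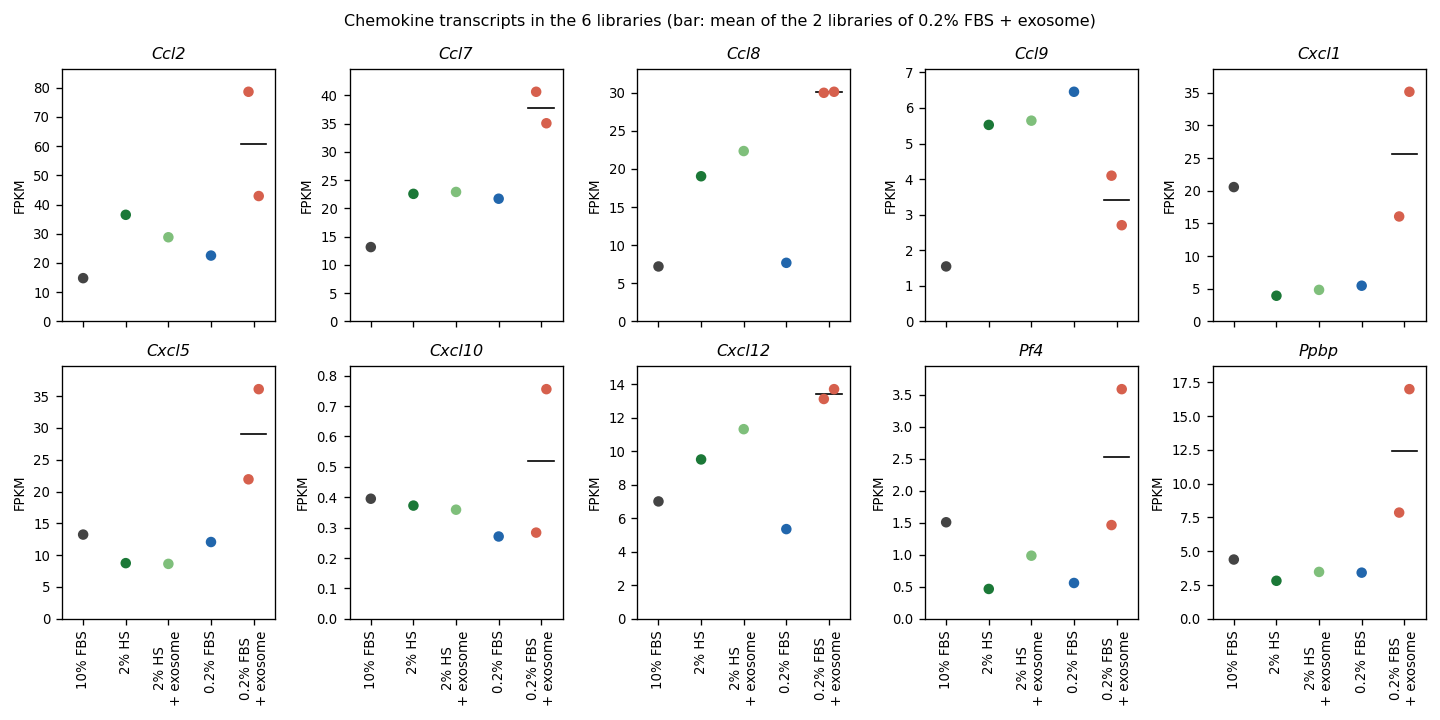
Levels of the 10 chemokine genes in FPKM (vertical axis, linear from 0) in each of the 6 libraries (horizontal axis, by condition); each point is 1 library and the bar is the mean of the 2 libraries of 0.2% FBS + exosome. Ccl8 and Cxcl12 had nearly equal values in these 2 libraries, Cxcl1 (16.1 and 35.1 FPKM) and Ccl2 (78.6 and 42.9 FPKM) differed between them, and Ccl9 lay lower there than in 0.2% FBS alone.

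Most of the genes lie in clusters of related chemokine genes (positions from GENCODE vM21 on mm10). Ccl2 (chr11:82035571-82037453), Ccl7 (chr11:82045712-82047525) and Ccl8 (chr11:82115185-82116799) lie on the plus strand within 81229 bases that hold 5 chemokine genes, the others being Ccl11 and Ccl12. No other gene that averaged 1 FPKM or more (called expressed from here on) lies within 500 kb of this cluster. Ccl9 (chr11:83572919-83578636, minus strand) belongs to a separate CC cluster further along the chromosome. Cxcl5 (chr5:90759360-90761624), Ppbp (chr5:90768518-90770063), Pf4 (chr5:90772435-90773383) and Cxcl1 (chr5:90891241-90893115), all on the plus strand, lie within 146579 bases that hold 7 chemokine genes. The remaining 3 of that cluster, Cxcl2, Cxcl3 and Cxcl15, did not exceed 0.399 FPKM. Cxcl10 (chr5:92346638-92348889, minus strand) lies beside Cxcl9 and Cxcl11, and Cxcl12 (chr6:117168535-117181367, plus strand) lies away from the other chemokine genes.

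Promoter sequences of RefSeq (GRCm38.p6, from 250 bases before to 50 bases after the gene's start) were matched for 7 of the 10 genes, and 3 are shown because they differ most in the motifs that the inflammatory and interferon pathways are known to use. Cxcl1 (chr5:90890995-90891294, plus strand) and Cxcl10 (chr5:92348840-92349139, minus strand, read 5′ to 3′ along the gene) hold matches to the κB consensus, the binding sequence of NF-κB. Ccl8 (chr11:82114935-82115234, plus strand) holds none. Capitals mark matches on either strand to the κB consensus and to the interferon-stimulated response element (GAAA, any 2 bases, GAAA).
Cxcl1: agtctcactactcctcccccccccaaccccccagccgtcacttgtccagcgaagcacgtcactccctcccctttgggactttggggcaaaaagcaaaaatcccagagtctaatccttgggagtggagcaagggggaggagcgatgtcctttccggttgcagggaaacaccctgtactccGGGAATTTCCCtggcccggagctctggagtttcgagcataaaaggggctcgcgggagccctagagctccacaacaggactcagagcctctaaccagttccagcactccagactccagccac
Cxcl10: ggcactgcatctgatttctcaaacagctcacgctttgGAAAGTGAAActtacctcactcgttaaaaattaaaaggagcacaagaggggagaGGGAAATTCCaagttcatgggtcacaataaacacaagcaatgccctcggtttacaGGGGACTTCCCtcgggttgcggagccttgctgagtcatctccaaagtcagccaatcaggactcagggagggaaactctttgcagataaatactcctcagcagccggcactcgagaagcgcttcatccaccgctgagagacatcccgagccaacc
Ccl8: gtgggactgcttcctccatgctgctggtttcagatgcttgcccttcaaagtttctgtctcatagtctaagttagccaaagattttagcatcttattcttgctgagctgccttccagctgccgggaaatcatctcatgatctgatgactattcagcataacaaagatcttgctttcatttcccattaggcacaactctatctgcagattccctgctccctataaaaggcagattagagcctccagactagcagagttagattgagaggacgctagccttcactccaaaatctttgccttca
The κB matches of Cxcl1 begin 71 and 70 bases before the start, on opposite strands, and overlap in all but their end bases. Cxcl10 has 4 such matches, which begin 159, 104 and 103 bases before the start (the last on both strands), and 1 interferon element, GAAAGTGAAA, at 213 bases before it. Ccl9 was the only other of the 7 genes with a κB match, 35 bases before its start on the opposite strand. Over all 32851 promoters of this length, 8.46% held a κB match and 3.44% the interferon element. The AP-1 element TGANTCA, the binding sequence of Fos and Jun, was found in Ccl9, Cxcl10 and Ppbp and in 7.81% of all promoters. The STAT element TTCNNNGAA, searched like the others on both strands, was found in none of the 7 and in 8.30% of all promoters. These matches describe the letters in this window, and no binding was measured.

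The first group is made of the CC genes of the Ccl2 cluster, whose products are monocyte chemoattractants. Ccl2, the main ligand of Ccr2, stood at 14.8 FPKM in 10% FBS, 36.5 in 2% HS, 28.8 in 2% HS + exosome and 22.5 in 0.2% FBS. With exosomes in 0.2% FBS it was 78.6 FPKM in replicate 1 and 42.9 in the other, a mean of 60.8 ± 25.2 (SD, n = 2). Both values were above those of the other 4 libraries, but replicate 2 was closer to 2% HS than to replicate 1. Against 0.2% FBS these are 3.49 and 1.904 times, or differences of 1.76 and 0.90 in log2(FPKM + 1). Ccl2 ranked 901st and 1798th among all entries in these 2 libraries and 3082nd in 0.2% FBS.

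Ccl7, which shares receptors with Ccl2, stood at 13.2 FPKM in 10% FBS, 22.6 in 2% HS, 22.9 in 2% HS + exosome, 21.7 in 0.2% FBS, and 40.6 and 35.1 in 0.2% FBS + exosome. The 3 libraries of low serum other than the latter were close together, and the 2 with exosomes in 0.2% FBS lay above them all (1.87 and 1.62 times 0.2% FBS, differences of 0.87 and 0.67). Ccl8, a further monocyte chemoattractant of the same cluster, stood at 7.20 FPKM in 10% FBS, 19.0 in 2% HS, 22.3 in 2% HS + exosome, 7.68 in 0.2% FBS, and 29.98 and 30.1 in 0.2% FBS + exosome. It was the member with the closest replicates (mean 30.05 ± 0.0968, SD, n = 2), at 3.90 and 3.92 times the level of 0.2% FBS and a difference of 1.84 in each. Unlike Ccl2 and Ccl7, Ccl8 was close to its level of 10% FBS in 0.2% FBS, while the 2 libraries of 2% HS lay between these and the exosome libraries of 0.2% FBS.

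Ccl9, a mouse CC chemokine that binds Ccr1, went the other way. It stood at 1.55 FPKM in 10% FBS, 5.52 in 2% HS, 5.64 in 2% HS + exosome, 6.46 in 0.2% FBS, and 4.10 and 2.70 in 0.2% FBS + exosome. The library of 0.2% FBS had the highest value of the 6, and those with exosomes were at 0.635 and 0.419 times that level (differences of −0.55 and −1.01). All 5 low serum libraries were above 10% FBS.

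The next group is made of the CXC genes of the Cxcl1 cluster. Cxcl1, a ligand of the neutrophil receptor Cxcr2, stood at 20.6 FPKM in 10% FBS, 3.93 in 2% HS, 4.82 in 2% HS + exosome and 5.46 in 0.2% FBS. With exosomes in 0.2% FBS it was 16.1 FPKM in replicate 1 and 35.1 in the other, a mean of 25.6 ± 13.5 (SD, n = 2). The 3 other low serum libraries were close together, and both exosome libraries of 0.2% FBS lay well above them, at 2.94 and 6.44 times 0.2% FBS (differences of 1.40 and 2.48). The value of 10% FBS lay between the 2 replicates.

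Cxcl5, also a Cxcr2 ligand, stood at 13.2 FPKM in 10% FBS, 8.75 in 2% HS, 8.63 in 2% HS + exosome, 12.1 in 0.2% FBS, and 21.9 and 36.1 in 0.2% FBS + exosome. Ppbp, the precursor of a Cxcr2 ligand best known from platelet granules, stood at 4.39 FPKM in 10% FBS, 2.81 in 2% HS, 3.47 in 2% HS + exosome, 3.42 in 0.2% FBS, and 7.86 and 17.0 in 0.2% FBS + exosome. For both genes the exosome libraries of 0.2% FBS were the 2 highest, and replicate 2 was above replicate 1. The levels were 1.82 and 2.99 times 0.2% FBS for Cxcl5 (differences of 0.81 and 1.51) and 2.30 and 4.98 times for Ppbp (1.01 and 2.03).

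Pf4, platelet factor 4, a heparin-binding chemokine of platelet granules, was low. It stood at 1.51 FPKM in 10% FBS, 0.466 in 2% HS, 0.986 in 2% HS + exosome, 0.559 in 0.2% FBS, and 1.46 and 3.59 in 0.2% FBS + exosome. At the estimated depths these levels come to 4 to 8 reads in 0.2% FBS and 26 to 47 in replicate 2, depending on the transcript length used. Replicate 2 alone stood above 10% FBS, and the differences from 0.2% FBS were 0.66 and 1.56. Pf4 and Ppbp are often read as signs of platelets, so platelet markers were looked at in the same libraries. The 12 listed summed to 12.6 FPKM in 10% FBS, 8.14 in 2% HS, 7.87 in 2% HS + exosome, 9.13 in 0.2% FBS, and 14.3 and 14.1 in 0.2% FBS + exosome, and most of this was the integrin Itgb3 (5.53 to 10.2 FPKM), which is not particular to platelets. Gp6 and Clec1b were at 0 in every library, Gp9 did not exceed 0.0481 FPKM, and Itga2b lay between 0.680 and 1.23 FPKM. Nfe2, a transcription factor of megakaryocytes on the same list, was also highest in replicate 2, at 0.883 FPKM in 10% FBS, 0.306 in 2% HS, 0.139 in 2% HS + exosome, 0.274 in 0.2% FBS, and 0.625 and 1.39 in 0.2% FBS + exosome. Other markers of the list did not share this order. Gp5 had its lowest value of all libraries in replicate 2 (0.163 FPKM), below 0.2% FBS (0.257) and replicate 1 (0.610). Gp1ba was lower in replicates 1 and 2 (0.112 and 0.175 FPKM) than in 0.2% FBS (0.182). Gp1bb (1.39, then 1.13 FPKM) and Itga2b (1.23, then 1.06 FPKM) were lower in replicate 2 than in replicate 1. The part of these markers in the levels of Pf4 and Ppbp was not tested.

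The last members are single genes of their groups. Cxcl12, the ligand of Cxcr4 and of the scavenging receptor Ackr3, stood at 7.01 FPKM in 10% FBS, 9.52 in 2% HS, 11.3 in 2% HS + exosome, 5.36 in 0.2% FBS, and 13.1 and 13.7 in 0.2% FBS + exosome. It was lowest in 0.2% FBS and highest in the 2 libraries with exosomes there, which were close together (2.45 and 2.56 times, differences of 1.15 and 1.21). Cxcl10, an interferon-induced ligand of Cxcr3, stood at 0.395 FPKM in 10% FBS, 0.372 in 2% HS, 0.359 in 2% HS + exosome, 0.271 in 0.2% FBS, and 0.284 and 0.756 in 0.2% FBS + exosome. Replicate 1 was at the level of 0.2% FBS and replicate 2 above every other library, on an estimated 9 to 11 and 23 to 29 reads. Cxcl10 lies within Art3 on the opposite strand, which was listed at 0.280 to 1.01 FPKM, and how the FPKM calculation treated the strand is not given in the sources used here, so its low values cannot be assigned with certainty. An annotated gene on the opposite strand, Gm17268, spans all of Ccl2 too and was not analysed here. Every run of 75 bases, the read length, was taken from the transcripts of each gene and looked for elsewhere. Of these runs, 0.623% of those of Cxcl5 and 2.47% of those of Cxcl10 occur in other genes, and none of those of the other 8 genes do.

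Counted by the study's limit, a log2 fold change above 1 or below −1 (here of FPKM + 1), 4 of the 10 genes were past it on the higher side in each exosome library of 0.2% FBS: Ccl8, Cxcl1, Cxcl12 and Ppbp. Of all entries, 0.458% were (96 of 20950). None of the 10 was past it on the lower side in each, where 0.835% of entries were. Since these values chose the genes, nothing is read from this count. Ppbp passed the limit narrowly (1.01 in replicate 1) and did not pass with the libraries scaled to the same 75th percentile. Ccl2 (0.90 in replicate 2) and Cxcl5 (0.81 in replicate 1) missed it narrowly in 1 replicate, Pf4 missed it in replicate 1 (0.66), and Ccl7 missed it in both (0.87 and 0.67). In direction, 9 of the 10 were higher in both libraries and Ccl9 was lower in both. Among the 10731 expressed genes, 5924 were higher in both and 2956 lower in both. The median difference of these genes was 0.14, and with the libraries scaled to the same 75th percentile it was 0.01.

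The addition of exosomes to 2% HS is a contrast that shares no library with the one in 0.2% FBS, although its values too were known when the genes were chosen. Here none of the 10 was past the limit on the higher side, against 0.186% of all entries, and none on the lower side, against 0.158%. The differences ran from −0.33 for Ccl2 to 0.44 for Pf4, with 7 genes above 0 and 3 below. Of the 10731 expressed genes, 4427 were above 0 and 6303 below. The value for Pf4, which is low, was 0.94 with a pseudocount of 0.1 and 0 with a floor of 1 FPKM. For Ccl8 the values of 19.0 and 22.3 FPKM gave 0.22, and for Cxcl1 the values of 3.93 and 4.82 gave 0.24. The differences of the same genes in 0.2% FBS had a part in their choice and are not a measure to set these against.

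With single libraries per condition, a test was possible only with limma, in which the 6 libraries had 1 mean per condition and the spread came from the 2 libraries of 0.2% FBS + exosome alone, and was assumed for the others. These are libraries whose values chose the genes, so the limma results for the 10 genes are not independent of that choice, in their errors if not in their differences. Of the 9 genes above the minimum of expression, limma called 0 for exosomes in 2% HS, 0 at an unadjusted p under 0.05, and 0 under each of the 4 other settings of the fit. Over all genes tested it called 0.0839% (9 of 10731). The 95% intervals of the 9 genes were wide for several and depended on the fit. They ran from −0.19 to 0.63 for Ccl8, from −0.19 to 0.65 for Cxcl12, from −0.43 to 0.47 for Ccl7, from −0.55 to 0.60 for Ccl9 and from −0.71 to 0.67 for Cxcl5. They were wider for Ccl2 (−1.14 to 0.47), Ppbp (−0.69 to 1.15), Pf4 (−0.43 to 1.31) and Cxcl1 (−0.72 to 1.20). With no filter on low values that of Cxcl1 ran from −3.00 to 3.48 and that of Ccl2 from −2.89 to 2.23. The difference between the media was not tested.

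**Figure D2:**
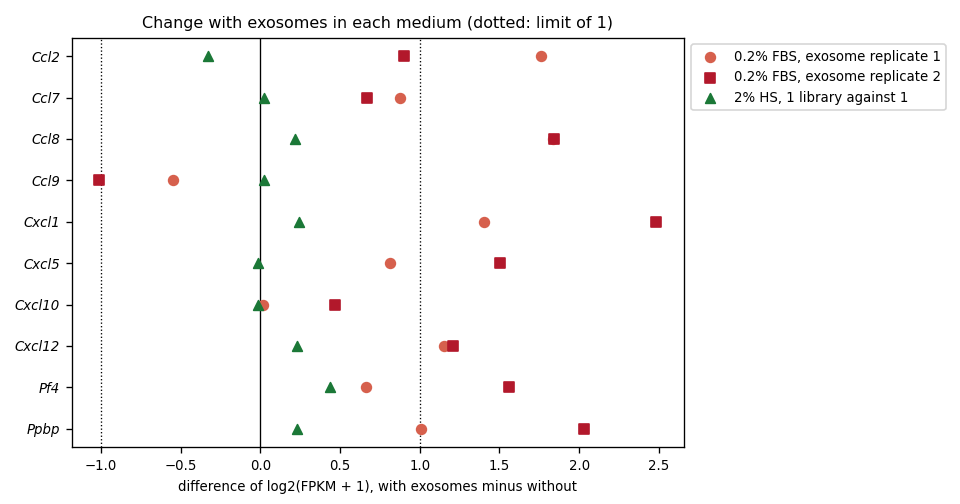
Differences in log2(FPKM + 1) between libraries with and without exosomes (horizontal axis) for each chemokine gene (vertical axis); circles and squares are replicates 1 and 2 of 0.2% FBS + exosome against the 1 library of 0.2% FBS, triangles are 2% HS + exosome against 2% HS, and dotted lines mark the limit of 1 in each direction. The triangles lie between −0.33 and 0.44, 4 genes have both red points beyond the upper limit, and those of Ccl8 coincide at 1.84.

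In the contrast of 10% FBS and 2% HS, which shares no library with the exosome contrast in 0.2% FBS, the CC genes Ccl2, Ccl7 and Ccl8 were higher in 2% HS, by 2.47 times for Ccl2, 1.72 times for Ccl7 and 2.64 times for Ccl8. Cxcl1, Pf4, Ppbp and Cxcl5, the CXC genes of the Cxcl1 cluster, were lower, with 10% FBS at 5.24 times the level of 2% HS for Cxcl1, 3.24 times for Pf4, 1.56 times for Ppbp and 1.51 times for Cxcl5. Ccl9 was 3.57 times higher in 2% HS.

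Past the limit on the higher side were 3 of the 10 genes, Ccl2 (1.25), Ccl8 (1.29) and Ccl9 (1.36), against 0.945% of all entries and 1.79% of the expressed genes. On the lower side it was 1 of the 10, Cxcl1 (−2.13), against 0.267% of all entries and 0.522% of the expressed genes. The 10 genes were chosen with earlier results of these data known, so nothing is read from these counts. In limma, Ccl8 was called as higher in 2% HS (difference 1.29, SE 0.18, Benjamini-Hochberg adjusted p = 0.0416), 1 of 9 against 0.401% of the genes tested. Its error rests in part on the nearly equal pair of Ccl8 values in 0.2% FBS + exosome (SD 0.0045 on the log2 scale, n = 2). The values of these libraries had a part in the choice of the genes, so nothing is read from the call. The call was lost under 3 of the 4 other settings, where the adjusted p was 0.414 with no filter on low values, 0.0574 at the same 75th percentile and 0.0946 with no trend. None of the 9 was called as lower, where limma called 0.112%. Ccl9 (SE 0.25, limma adjusted p = 0.0631), Cxcl1 (SE 0.42, limma adjusted p = 0.0722), Ccl7 (difference 0.74, SE 0.20, limma adjusted p = 0.134) and Ccl2 (SE 0.35, limma adjusted p = 0.149) did not pass, though all 4 were under 0.05 before adjustment, as were 1805 of the 10731 genes. These contrasts share the library of 2% HS with the exosome contrast in that medium.

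The library of 0.2% FBS, which is also the control of the exosome contrast, was compared with 10% FBS by values alone. Ccl9 was past the limit as higher (4.18 times, difference 1.55), 1 of 10 against 0.931% of all entries and 1.79% of the expressed genes. Cxcl1 was past it as lower (10% FBS at 3.76 times, difference −1.74), 1 of 10 against 0.368% and 0.69%. The library of 0.2% FBS had a part in the choice of the genes, so nothing is read from these counts. As in 2% HS, the 4 CXC genes of the Cxcl1 cluster were lower than in 10% FBS, by −0.12 for Cxcl5 to −1.74 for Cxcl1. Ccl2 and Ccl7 were higher by 0.57 and 0.68 and Ccl8 differed by 0.08. Of the 10 genes, Ccl8 differed most on the log2 scale between the 2 media of low serum, at 19.0 FPKM in 2% HS and 7.68 in 0.2% FBS.

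**Figure D3:**
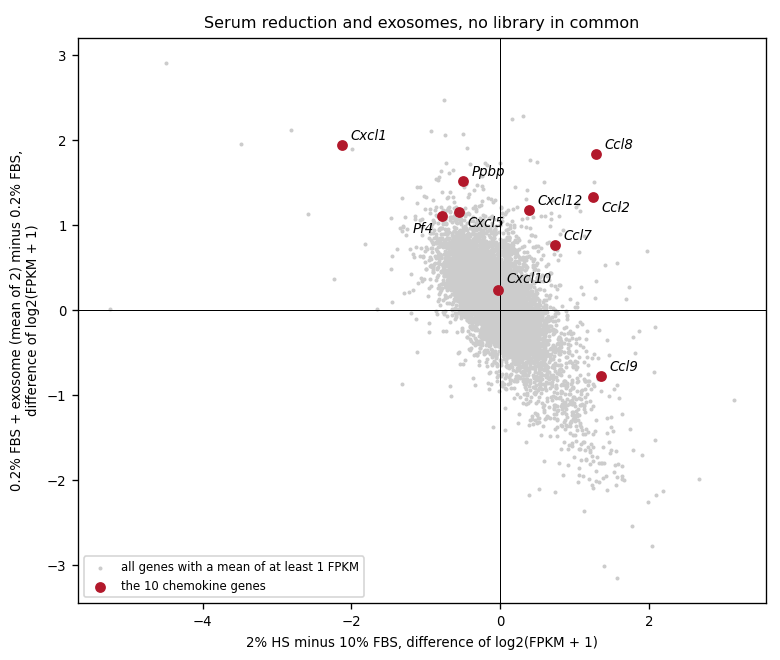
Difference in log2(FPKM + 1) between 2% HS and 10% FBS (horizontal axis) against that between 0.2% FBS + exosome (mean of 2 libraries) and 0.2% FBS (vertical axis); red points are the 10 chemokine genes and grey points all genes that averaged 1 FPKM or more. Ccl2, Ccl7 and Ccl8 lie above 0 on both axes, Cxcl1, Cxcl5, Pf4 and Ppbp lie left of 0 and above it, and Ccl9 lies right of 0 and below it.

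Several of the genes differed between the 2 replicates of 0.2% FBS + exosome. All 4 CXC genes of the Cxcl1 cluster were higher in replicate 2, by 2.19 times for Cxcl1, 1.65 times for Cxcl5, 2.45 times for Pf4 and 2.16 times for Ppbp. Ccl2 was 1.83 times higher in replicate 1, while Ccl7 (1.16 times) and Ccl8 (29.98 and 30.1 FPKM) differed little. Across the 6 libraries, Pearson's r of log2(FPKM + 1) was 0.98 for Cxcl5 with Ppbp, 0.94 for Pf4 with Ppbp, 0.94 for Ccl2 with Ccl7 and 0.96 for Ccl8 with Cxcl12, while that of Cxcl1 with Ccl9 was −0.83 and that of Cxcl1 with Ccl2 was 0.16. These are descriptions over 6 libraries of which 2 share a condition. The values of these 2 had a part in the choice of the genes, so nothing is read from the correlations among them. The genes most like Ccl2 by this measure among expressed genes were Gmpr (r = 0.99), Tvp23b (0.98), Slc27a4 (0.98), Pomk (0.98) and Pdpn (0.98). Pdpn, podoplanin, had the widest range of these, from 77.3 FPKM in 10% FBS to 160.9 in replicate 1 of 0.2% FBS + exosome. Gmpr (3.60 to 4.44 FPKM) and Pomk (3.73 to 4.68 FPKM) varied little. These genes were picked as the highest r of all expressed genes over only 6 libraries, so nothing is read from their likeness to Ccl2.

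Genes induced within minutes by serum or stress were set beside the chemokines, and several of them differed between the replicates. Fos, a subunit of AP-1, stood at 112.5 FPKM in 10% FBS, between 3.04 and 4.32 in the 3 low serum libraries other than 0.2% FBS + exosome, and at 8.03 in replicate 1 and 100.2 in replicate 2 there. Zfp36, an RNA-binding protein that promotes the decay of mRNAs with AU-rich elements, stood at 75.1, between 10.97 and 11.7, and at 14.0 and 47.0 FPKM in the same order. Both genes thus had their high values in 10% FBS and in replicate 2, where Cxcl1 had its own. Over the list of 12 immediate-early genes the median difference from 0.2% FBS was 0.13 in replicate 1 and 1.14 in replicate 2, beside 0.09 and 0.18 over all expressed genes. Myc (15.7 and 17.1 FPKM) and Fosl1 (2.69 and 3.10 FPKM) were close in the 2 replicates, and Atf3 (4.15 and 2.13 FPKM) was below its level of 6.63 in 0.2% FBS in both. Only Fos passed the limit in both replicates (1.16 and 4.65), and Atf3 was the only gene of the list past it with exosomes in 2% HS (1.73), from 5.85 to 21.7 FPKM. The part of this difference between replicates in the levels of the CXC genes was not tested.

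**Figure D4:**
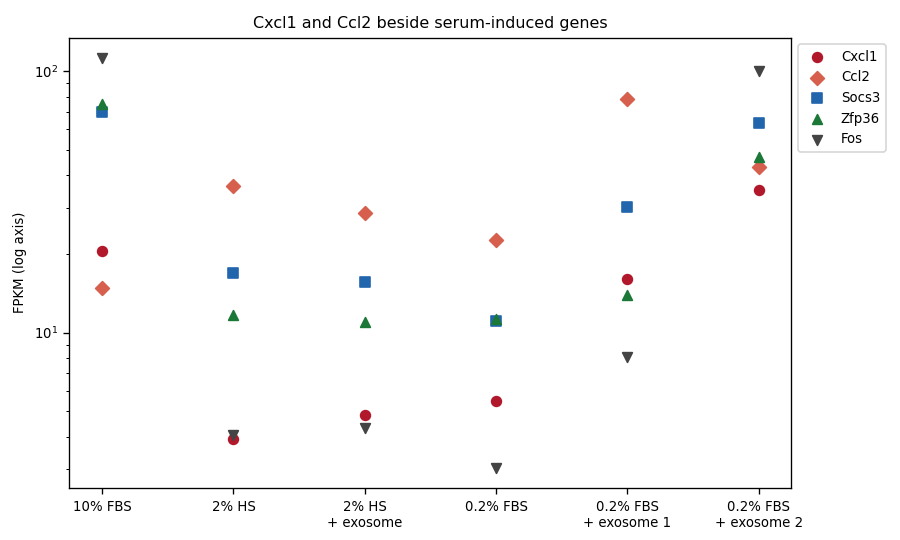
Levels in FPKM (vertical axis, log scale) of Cxcl1, Ccl2, Socs3, Zfp36 and Fos in each of the 6 libraries (horizontal axis); each point is 1 library. Cxcl1, Socs3, Zfp36 and Fos have their 2 highest values in 10% FBS and in replicate 2 of 0.2% FBS + exosome, and Ccl2 has its lowest in 10% FBS and its highest in replicate 1.

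Of the 28 other chemokine ligands looked at, 10 were at 0 in every library and 5 reached 1 FPKM in any. Ccl5, a chemokine that T cells are known to make, stood at 2.61 FPKM in 10% FBS, 0.781 in 2% HS, 1.78 in 2% HS + exosome, 0.984 in 0.2% FBS, and 3.69 and 4.39 in 0.2% FBS + exosome. It was the only one of them past the limit in both exosome libraries (1.24 and 1.44), and its difference in 2% HS was 0.64. Cxcl13, a B cell attractant, was highest in 10% FBS at 23.5 FPKM, lay between 9.26 and 11.1 in the low serum libraries without exosomes or with exosomes in 2% HS, and was 9.76 and 16.6 in 0.2% FBS + exosome. Ccl25 (2.61 to 4.48 FPKM), the membrane-bound Cx3cl1 (1.66 to 3.39 FPKM) and Ccl11 (0.207 to 1.15 FPKM) were the remaining 3.

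Of 23 chemokine receptors, 4 reached 1 FPKM in any library. Cxcr4 stood at 37.6 FPKM in 10% FBS, 19.9 in 2% HS, 21.3 in 2% HS + exosome, 23.1 in 0.2% FBS, and 45.2 and 52.4 in 0.2% FBS + exosome (differences of 0.94 and 1.15). Ackr3 stood at 14.95, 6.39, 7.45 and 4.94 FPKM in the same order, and at 10.0 and 17.3 in 0.2% FBS + exosome (0.89 and 1.62). Both receptors of Cxcl12 were thus higher with exosomes in 0.2% FBS, as was Cxcl12, but unlike it they were higher in 10% FBS than in any low serum library without exosomes, and none of the 4 was past the limit in both replicates. Cxcr2, the receptor of Cxcl1, Cxcl5 and the product of Ppbp, lay between 0.955 and 1.55 FPKM, and Ackr4, which clears CC chemokines, between 0.412 and 1.71. Ccr2 was at 0 in every library, and Ccr1 did not exceed 0.0196 FPKM.

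**Figure D5:**
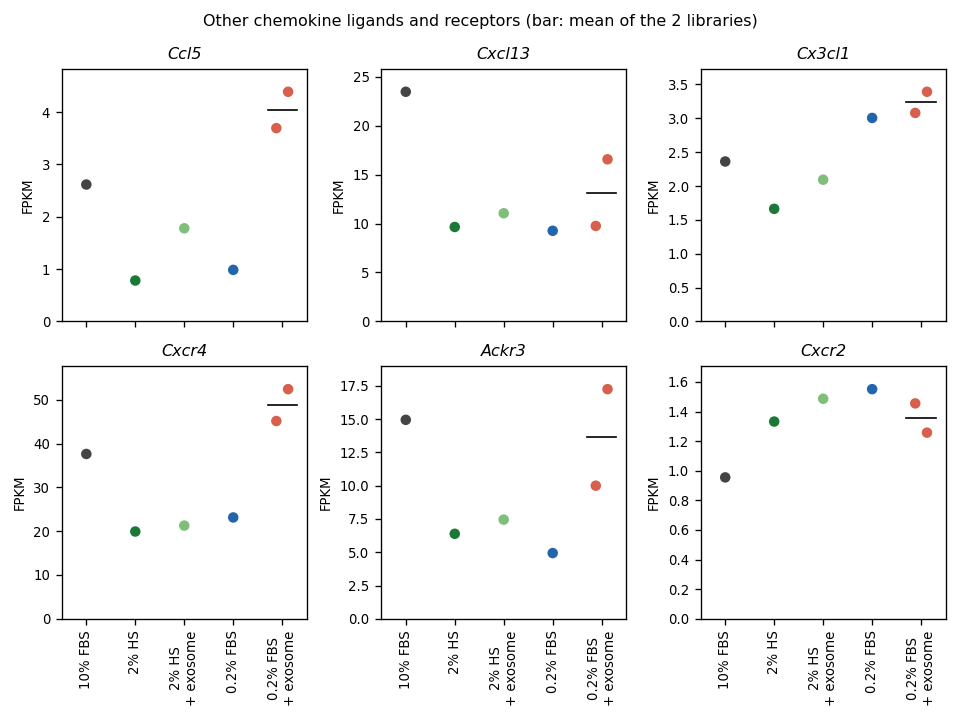
Levels in FPKM (vertical axis, linear from 0) of 3 other chemokine ligands and 3 receptors in each of the 6 libraries (horizontal axis, by condition); each point is 1 library and the bar is the mean of the 2 libraries of 0.2% FBS + exosome. All but Cxcr2 have both exosome libraries above 0.2% FBS. The distance is small for Cx3cl1 (3.01 FPKM, then 3.08 and 3.39) and for replicate 1 of Cxcl13 (9.26 FPKM, then 9.76 and 16.6). Cxcr2 stays between 0.955 and 1.55 FPKM.

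The pathways upstream of chemokine genes were described by lists. Of all expressed genes, 0.895% passed the limit as higher and 1.61% as lower in both exosome libraries of 0.2% FBS, and 0.354% and 0.298% in 2% HS, so a count of 0 is near the background for lists of this size. Of the 24 expressed NF-κB pathway genes, 0 passed the limit in both exosome libraries of 0.2% FBS or in 2% HS. Of them, 13 were higher and 4 lower in both replicates, beside 5924 and 2956 of all 10731 expressed genes. The median difference of the list was 0.18, beside 0.14 over all 10731 genes. Of 6 expressed cytokine genes, none passed. Of 14 expressed interferon response genes, 5 passed the limit as higher in both replicates, and the median of the list was 0.85. They were Ifit1 (1.01 in each), Ifit3 (1.16 and 1.05), Isg15 (1.07 and 1.36), Oasl2 (1.13 and 1.01) and Socs3 (1.37 and 2.41). The first 4 belong to the antiviral response, and their levels did not exceed 8.88 FPKM in any library. Socs3, a feedback inhibitor of cytokine signalling through STAT3, went from 11.1 FPKM in 0.2% FBS to 30.3 and 63.3, and stood at 70.1 in 10% FBS. In 2% HS the median of the interferon list was 0.14, and Ifit3 alone passed (1.03). Of 7 regulators of mRNA decay, Zfp36l2 passed in both replicates (1.16 and 1.21), from 21.3 FPKM to 48.8 and 50.4.

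Markers of other cells were counted because leukocytes and fibroblasts make several of these chemokines. The 12 leukocyte markers summed to 6.23 FPKM in 10% FBS, 6.65 in 2% HS, 5.39 in 2% HS + exosome, 5.97 in 0.2% FBS, and 9.06 and 9.62 in 0.2% FBS + exosome. Cd14, Cd68 and Lyz2 made up most of it, and Cd14 stood at 2.87 FPKM in 0.2% FBS and at 5.33 and 6.13 with exosomes. Fcer1g was at 0 except in the 2 libraries of 0.2% FBS + exosome (0.062 and 0.0646 FPKM). Tyrobp was at 0 except in replicate 2 of these (0.243 FPKM). Itgam went the other way, from 0.211 FPKM in 0.2% FBS to 0.107 and 0.0330 with exosomes. Laptm5 was at 0.0123 FPKM in 0.2% FBS and at 0 in both exosome libraries there. Lyz2 stood at 1.17 FPKM in 0.2% FBS, then at 1.46 and 1.04. Adgre1 was at 0 in every library, and Ptprc, which all leukocytes carry, was at 0 in 4 of the 6 and at most 0.0119 FPKM in the others. Of 10 endothelial markers, none reached 1 FPKM in any library. The 10 fibroblast markers summed to between 1293 and 1323 FPKM in 10% FBS and both libraries of 2% HS, to 1698 in 0.2% FBS, and to 2158 and 1657 in 0.2% FBS + exosome, mostly Col3a1, while Thy1 was at 0 in every library. Of the 7 that were expressed, 4 were higher in both exosome libraries of 0.2% FBS and 0 lower in both, and none passed the limit. Over all 10731 expressed genes, 5924 were higher in both and 2956 lower in both. Pdgfrb went from 24.8 FPKM in 0.2% FBS to 40.7 and 39.3, Col1a1 from 88.4 to 119.6 and 119.997, and Dcn from 81.6 to 156.2 and 112.1. Col3a1 (1480 FPKM, then 1811 and 1360), Lum (2.53, then 4.55 and 1.70) and Pdgfra (5.01, then 4.66 and 8.89) were higher in 1 replicate and lower in the other, and Dpt was lower in both (0.961, then 0.434 and 0.185). The part of these markers in the chemokine levels was not tested.

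Neighbouring genes were looked at for the clusters. Within 500 kb of the Cxcl1 cluster 2 other genes were expressed, Ankrd17 (−0.09 and 0.05 with exosomes in 0.2% FBS) and Mthfd2l (0.25 and 0.23). Neither was near the limit. The 4 chemokine genes of the cluster were selected on this contrast, so no comparison with them is drawn. Around Ccl9, 12 such genes were found, 5 of them higher and 7 lower in both replicates and none past the limit. Around Cxcl10 there were 9, of which Shroom3 alone was past it (−1.15 and −1.31).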

How the data were processed

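RNA of C2C12 cells was made into stranded mRNA libraries and read as 75 bp single-end reads. The labels name a miRNeasy kit for the RNA and the study's methods an RNeasy kit. The authors trimmed reads with cutadapt 1.9.1, mapped them to mm10 with TopHat2 2.1.0, computed FPKM with Cufflinks and deposited 1 table of FPKM values with a column per library; these are scaled by transcript length and by depth. The 10 genes, the lists of other genes and the tests were chosen with earlier results of these data known.

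Values were compared as log2(FPKM + 1), with the study's limit of 1 or −1 applied to all entries. limma 3.58.1 (R 4.3.3) was fitted with a mean-variance trend to the 10731 genes that averaged 1 FPKM or more, with 1 mean per condition, 1 residual degree of freedom and Benjamini-Hochberg adjustment, and calls at an adjusted p under 0.05. On simulated data for 2% HS + exosome against 2% HS (10731 genes), it recovered 43 of 50 genes changed by 1 and 49 of 50 changed by 2. It recovered all 50 changed by 3 and by 4, and 9 of its 201 calls were false. In the simulation every library varied alike, with a spread smoothed over the level of the genes. The single libraries and the separate genes of the data need not vary so. The shares recovered are therefore no measure of what the fit can find in the data. p-values rest on the spread between 2 libraries, which may be technical.

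Named genes are all 10 chemokine genes, the other ligands and the receptors that reach 1 FPKM in any library, the genes of the NF-κB, cytokine, interferon and mRNA decay lists past the limit in both exosome libraries of 0.2% FBS or in 2% HS, and the 5 genes most like Ccl2 by Pearson's r. Fos, Atf3, Myc, Fosl1, Zfp36, the marker genes, the neighbouring genes, and the ligands and receptors below 1 FPKM that lie in a cluster or bind a named ligand were named after their values were seen. Depth was estimated from low values of 2442 genes with a single transcript over 1000 bases, assuming fragments of 200 bases. At those depths 74.3% to 77.0% of the low values lay within 0.1 of a whole read (20% if spread evenly), too few to recover read counts, so single values carry no interval. Alternatives were a pseudocount of 0.1, a floor of 1 FPKM, the same 75th percentile, no filter on low values, no trend and leaving out each replicate.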

Additional observations from a re-analysis of the deposited data

Results flagged for a closer look

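For 4 of the 10 chemokine genes the change with exosomes in 2% HS had the opposite sign to both replicates in 0.2% FBS, as it had for 45.7% of the 10731 genes with a mean of 1 FPKM or more. Ccl2 differed by −0.33 in log2(FPKM + 1) in 2% HS, where it was 36.5 FPKM without and 28.8 with exosomes, against 1.76 and 0.90 in 0.2% FBS. The other 3 changes in 2% HS were close to 0. They were 0.026 for Ccl9 (against −0.55 and −1.01), −0.017 for Cxcl5 (against 0.81 and 1.51) and −0.014 for Cxcl10 (against 0.01 and 0.47). That of Cxcl5 became 0.013 when the libraries were scaled to the same 75th percentile. The difference between the media was not tested, the values in 0.2% FBS had a part in the choice of the genes, and nothing is read from signs of changes this close to 0.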

How the results depend on the processing

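The changes with exosomes changed sign under none of the alternatives, except that of Cxcl5 in 2% HS at the same 75th percentile (0.01 in place of −0.02). With a floor of 1 FPKM, Cxcl10 in both media and Pf4 in 2% HS came to 0. With a pseudocount of 0.1 the change of Pf4 went from 1.11 to 1.87 in 0.2% FBS and from 0.44 to 0.94 in 2% HS, and that of Cxcl10 from 0.24 to 0.63 in 0.2% FBS. In 0.2% FBS, 4 members were past the limit as higher, 3 at the same 75th percentile (Ppbp was lost), 5 with a pseudocount of 0.1 (Pf4 was added), 5 without replicate 2 of 0.2% FBS + exosome and 6 without replicate 1. As lower the range was 0 to 1, the 1 being Ccl9 without replicate 1. With a pseudocount of 0.1, 2 members (Cxcl1 and Pf4) in place of 1 were lower than in 10% FBS past the limit in 2% HS, and likewise 2 in 0.2% FBS. limma called 1 member (Ccl8) for 2% HS against 10% FBS, 0 with no filter on low values, 0 at the same 75th percentile and 0 with no trend, and the cause was not tested. Its calls over all genes were 43 higher and 12 lower, 0 and 0 with no filter, 2 and 1 at the same percentile, 0 and 1 with no trend, and 51 and 17 with a pseudocount of 0.1. For exosomes in 2% HS it called 7 higher and 2 lower, and 0 with no filter. Leaving out a replicate leaves limma no residual degrees of freedom. No paired analysis was run, since the conditions share fewer than 2 replicate numbers, and no exosome effect common to both media was fitted. With 1 library in 4 of the 5 conditions and depth known only by estimate, low genes such as Pf4 and Cxcl10 are the least precise.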
